A study of Mus musculus with 18 samples.

Results

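Macrophages of adipose tissue were described through the expression of 10 marker genes, chosen by name as general (Adgre1, Cd68, Csf1r, Itgam and Tyrobp), resident (Mrc1, Cd163 and Lyve1) and lipid-associated (Trem2 and Itgax) macrophage genes. Each of the 10 was found as 1 row among the 54347 rows of the count table, of which 31886 carried a gene symbol. All 10 passed the filter on low counts and were among the 18728 genes tested. Brown fat from between the shoulder blades (iBAT) and white fat from the inguinal (iWAT) and the epididymal (eWAT) depot were taken from each of 6 mice at 12 weeks of age. All mice, wild types included, carried the line label C57BL/6N-ΔGm15551, and all were fed chow and housed at room temperature. Of these, 3 were wild type (wt) and 3 were homozygous knockout (ko) litter mates, with a germline CRISPR/Cas9 deletion that takes in exon 1 of the long noncoding RNA gene Gm15551. With 1 library per tissue and mouse, the 18 libraries formed 6 groups of 3.

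Macrophages are the main phagocytes of adipose tissue. They develop and survive through the receptor encoded by Csf1r, which binds the growth factors encoded by Csf1 and Il34, and they sense their surroundings through receptors that signal by way of adaptor proteins such as the product of Tyrobp and the kinase encoded by Syk. In lean fat, most macrophages are resident cells that lie along vessels and express scavenger and endocytic receptors, among them those encoded by Mrc1, Cd163 and Lyve1. In obesity, cells around dying adipocytes take up lipid and express Trem2 and Itgax. Several of the genes are not restricted to macrophages: Itgax is also a marker of dendritic cells, Itgam of neutrophils and monocytes, and Lyve1 of lymphatic endothelium.

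In bulk RNA, fewer macrophages and less RNA per macrophage cannot be told apart. Levels are given as CPM, that is read counts divided by a library size that was itself adjusted for RNA composition, and are compared between genes only after division by the total exon length (CPM per kb). A gene was called when the adjusted p of edgeR's quasi-likelihood test, corrected over all genes tested, was under 0.05. Apart from Csf1r, the genes lie on chromosome 17 (Adgre1, 57358691 to 57483527, and Trem2, 48346401 to 48354147), chromosome 11 (Cd68, 69664213 to 69666153), chromosome 7 (Itgam, 128062640 to 128118491, Itgax, 128129547 to 128150657, Lyve1, 110850607 to 110863239, and Tyrobp, 30413760 to 30417585), chromosome 2 (Mrc1, 14229392 to 14332057) and chromosome 6 (Cd163, 124304656 to 124330527) of GRCm38, and all are protein-coding. Itgam and Itgax, which encode the alpha chains of related integrins, are neighbours. Itgam shared 3450 exon bases with the gene model Gm49368 on the same strand, which held 0 to 7 counts per library, and counting both together changed no call among the 10 genes. Csf1r shared 873 exon bases with Hmgxb3 on the opposite strand, which held 20.1 to 37.2 CPM in iBAT. Since it is not known whether strand was used in counting, the level of Csf1r is uncertain, most of all in iBAT, where both genes were at similar levels.

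Several libraries stood apart. Comparisons of the 10 genes between iWAT and the other tissues are given with and without the libraries rich in lymph node genes. Calls in iBAT without those rich in epididymis or muscle genes are given in the closing section. Total counts ranged from 14997901 to 34389586 per library. Summed over 10 lymph node genes (led by Cd79a, a B cell receptor component), iWAT wt replicate 3 held 1130 CPM and iWAT ko replicate 2 held 496 CPM, compared with 7.73 to 23.1 CPM in the other 4 iWAT libraries. In these same libraries, 8 of the 10 macrophage genes were above the other 4 iWAT libraries (80%, compared with 21.6% of all genes tested). Adipocyte genes were lowest there among the iWAT libraries, at 3002 and 5181 CPM for a list of 4 led by Cidec, with 7602 to 9827 CPM in the other 4. In eWAT, ko replicate 3 held 5094 CPM of 5 epididymis genes led by Crisp1, where the other 5 held 0.129 to 34.5 CPM, and it was the lowest eWAT library for all 10 macrophage genes (34.7% of all genes were lowest in it). In iWAT ko replicate 1, 5 skeletal muscle genes led by Myh4 reached 3848 CPM, and Cd163 and Lyve1 were highest there (17.8% of all genes were). The highest iBAT library for 9 of the 10 macrophage genes was wt replicate 2 (15.4% of all genes). The part of lymph node, epididymis or muscle RNA in the levels of the 10 genes was not tested. The tissue labels were matched by Ucp1, the brown fat uncoupling protein (mean 5510 CPM in iBAT, 16.1 in iWAT and 0.365 in eWAT), by Tbx15 (3.89, 21.8 and 0.134 CPM) and by the mesothelial gene Upk3b (0.0108, 0.0112 and 37.3 CPM). The genotype labels were matched by Gm15551, with 40 to 316 counts in wild type and 0 to 4 in knockout libraries.

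**Figure D1:**
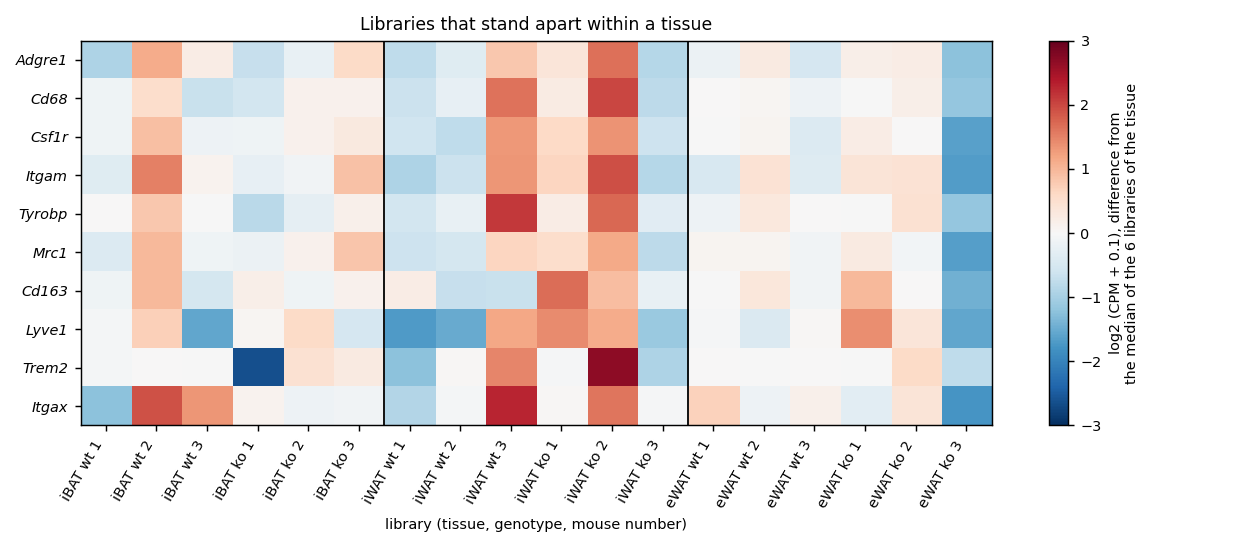
Deviation of each macrophage gene (rows) in each library (columns) from the median of the 6 libraries of its tissue, as the difference in log2 (CPM + 0.1), with red above and blue below that median. Most genes are red in iWAT wt 3, iWAT ko 2 and iBAT wt 2, and every gene is blue in eWAT ko 3.

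Promoter sequence was at hand for 6 of the 10 genes (RefSeq, GRCm38.p6), and 4 are shown because their genes behaved differently in the comparisons below: Mrc1, whose ratio to Csf1r was among the steadiest, Cd163, whose ratio to Csf1r was lowest in 1 of the lymph node rich libraries, and Itgam and Trem2, whose ratios to Csf1r separated iBAT from eWAT. Each run is the 250 bases before the transcription start, 5′ to 3′ on the strand of the gene. Capitals mark GAGGAA, the core letters of the purine-rich box bound by PU.1 (encoded by Spi1), the factor that directs macrophage development, or the same letters read from the opposite strand. The windows are chr2:14229164-14229413 for Mrc1, chr6:124304401-124304650 for Cd163, chr7:128062390-128062639 for Itgam and chr17:48346151-48346400 for Trem2, all on the plus strand.
Mrc1: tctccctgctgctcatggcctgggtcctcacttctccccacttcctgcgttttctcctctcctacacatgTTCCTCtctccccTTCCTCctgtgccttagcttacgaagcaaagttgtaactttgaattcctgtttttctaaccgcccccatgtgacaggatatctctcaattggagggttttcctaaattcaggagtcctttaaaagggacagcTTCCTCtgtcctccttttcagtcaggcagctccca
Cd163: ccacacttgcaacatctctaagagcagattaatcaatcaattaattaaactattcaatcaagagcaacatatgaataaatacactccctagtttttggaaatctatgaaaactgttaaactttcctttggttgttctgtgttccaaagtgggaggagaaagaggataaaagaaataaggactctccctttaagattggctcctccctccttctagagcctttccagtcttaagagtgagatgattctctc
Itgam: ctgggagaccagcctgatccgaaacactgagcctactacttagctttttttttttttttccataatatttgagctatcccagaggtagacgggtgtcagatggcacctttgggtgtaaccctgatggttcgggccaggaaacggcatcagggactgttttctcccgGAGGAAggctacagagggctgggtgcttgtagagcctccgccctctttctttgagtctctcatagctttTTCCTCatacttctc
Trem2: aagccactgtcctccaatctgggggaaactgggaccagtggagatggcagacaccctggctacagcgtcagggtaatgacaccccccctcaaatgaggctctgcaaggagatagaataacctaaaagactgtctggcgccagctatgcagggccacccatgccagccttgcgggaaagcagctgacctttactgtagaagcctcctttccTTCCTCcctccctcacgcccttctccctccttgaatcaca
The letters occur 3 times in the Mrc1 window, all on the opposite strand, at 180, 167 and 35 bases before the start. In the Itgam window they occur 2 times, 84 bases before the start on the gene's strand and 15 bases before it on the other. The Trem2 window holds 1 copy at 40 bases before the start, and the Cd163 window holds 0. Of the other windows, that of Cd68 holds 1 copy and that of Itgax 0, so that 4 of 6 hold at least 1. Over all 32851 promoter windows of the table, 23.3% hold the letters on either strand within the same 250 bases. A match is a description of the letters and was not tested as a site.

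The first question was how the level of macrophage genes differs between brown and white fat. All 10 genes were lower in iBAT than in iWAT, with 30.3% of all genes tested called lower in the same comparison. The log2 fold changes ran from -1.82 for Cd163 to -4.14 for Itgam, with a median of -3.11 over the 10 genes and -0.145 over all genes. Relative to eWAT, all 10 were again lower in iBAT, where 30.2% of all genes were, from -1.81 for Cd163 to -3.56 for Itgam, with a median of -2.22 (all genes, -0.175). These comparisons share the iBAT libraries.

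Among the general genes, Csf1r, the receptor on which macrophage survival depends, ranged from 13.5 to 28.1 CPM in iBAT (median 15.1), from 49.8 to 215 CPM in iWAT (median 91.6) and from 27.5 to 98.3 CPM in eWAT (median 84.7). The 6 iBAT libraries lay below all iWAT libraries, whereas the lowest eWAT library, ko replicate 3, lay just under the highest iBAT library. The log2 fold change was -2.77 ± 0.42 (SE) against iWAT and -2.11 ± 0.41 against eWAT, with edgeR adjusted p-values of 3.86e-05 and 0.000362. Tyrobp, the adaptor that carries the signal of Trem2 and other receptors, held 1.41 to 4.54 CPM in iBAT (median 2.56), 9.97 to 64.2 CPM in iWAT (median 14.7) and 5.89 to 18.5 CPM in eWAT (median 13.4). Its iBAT libraries overlapped neither white tissue. The difference was -3.37 ± 0.49 and -2.34 ± 0.47 on the log2 scale (edgeR adjusted p 2.48e-05 and 0.000531).

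Itgam, which encodes the alpha chain of the complement receptor CR3 (CD11b), differed most. Its lowest, median and highest values were 0.867, 1.14 and 3.44 CPM in iBAT, whereas iWAT spanned 9.61 to 70.7 CPM around a median of 20.2 and eWAT 6.19 to 27.03 CPM around a median of 20.8. No iBAT library reached the lowest library of either white tissue. The fitted difference was -4.14 ± 0.60 against iWAT and -3.56 ± 0.59 against eWAT (edgeR adjusted p 2.42e-05 and 7.56e-05), that is 17.7-fold and 11.8-fold lower in iBAT. Adgre1, which encodes the surface antigen F4/80, reached 2.04 to 8.75 CPM in iBAT, 13.02 to 74.6 CPM in iWAT and 8.17 to 23.2 CPM in eWAT. Cd68, which encodes a lysosomal glycoprotein, reached 2.71 to 6.35, 9.72 to 67.3 and 7.58 to 19.3 CPM. Both were lower in iBAT by similar amounts, Adgre1 by -2.80 ± 0.48 and -1.96 ± 0.46 and Cd68 by -2.75 ± 0.47 and -1.86 ± 0.46 on the log2 scale.

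The resident genes encode receptors that clear material from the tissue. Mrc1, the mannose receptor, held 6.62 to 17.3 CPM in iBAT (median 8.81), 40.1 to 152 CPM in iWAT (median 74.04) and 15.6 to 59.5 CPM in eWAT (median 49.6). Only eWAT ko replicate 3 came within the iBAT range. The log2 fold change was -2.91 ± 0.40 against iWAT and -2.07 ± 0.39 against eWAT (edgeR adjusted p 1.34e-05 and 0.000261).

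Cd163, the scavenger receptor for haemoglobin bound to haptoglobin, showed the smallest tissue difference of the 10 genes in both comparisons when all libraries were used. Without the lymph node rich libraries, its difference from iWAT was -1.92, and those of Cd68 (-1.67) and Trem2 (-1.87) were smaller. It held 6.66 to 18.9 CPM in iBAT (median 9.64), 18.01 to 92.7 CPM in iWAT (median 29.3) and 12.8 to 68.8 CPM in eWAT (median 35.0). The highest iBAT library overlapped the lowest libraries of both white tissues. With -1.82 ± 0.43 against iWAT and -1.81 ± 0.42 against eWAT, it was still called (edgeR adjusted p 0.00191 and 0.00168). In the wild type libraries alone, the difference from iWAT was -1.04 with an edgeR adjusted p of 0.0691. Lyve1, the hyaluronan receptor, held 0.776 to 4.15 CPM in iBAT (mean 2.57), 6.27 to 55.1 CPM in iWAT (median 26.7) and 4.26 to 33.8 CPM in eWAT (median 12.7). Its iBAT values overlapped neither white tissue, and it was lower by -3.37 ± 0.63 and -2.48 ± 0.61 on the log2 scale (edgeR adjusted p 0.000263 and 0.00248), although in wild type libraries alone the difference from eWAT was -2.24 with an edgeR adjusted p of 0.0673. The 6 lymphatic endothelium genes, led by Ccl21a, summed to 24.5 to 31.6 CPM in iBAT, 21.9 to 310.3 CPM in iWAT and 37.3 to 106 CPM in eWAT. Of the 6, 5 were called lower and 1 higher in iBAT than in iWAT (median -3.30), beside 30.3% and 24% of all genes. Relative to eWAT, 3 were called lower (median -2.92), beside 30.2% of all genes. Without the lymph node rich libraries, 1 lymphatic gene was lower and 1 higher than in iWAT (median -1.06), where 24.5% of all genes were lower. The part of lymphatic endothelium in the level of Lyve1 was not tested.

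The lipid-associated genes were at the lower end of what this depth can measure in iBAT. Trem2, a lipid-sensing receptor, held 0 to 10 counts per library in iBAT, or 0 to 0.751 CPM with a median of 0.518. In the iBAT library at 0 counts, ko replicate 1, a level of up to 0.235 CPM (3 counts) remains possible from counting error alone. In iWAT it held 1.01 to 16.5 CPM (median 2.48) and in eWAT 3.12 to 8.03 CPM (median 5.36). All iBAT libraries lay below all white fat libraries, and the fitted differences were -3.32 ± 0.70 and -3.45 ± 0.70 (edgeR adjusted p 0.000774 and 0.000523). Itgax, which encodes the integrin chain CD11c, held 2 to 29 counts or 0.124 to 1.88 CPM in iBAT (median 0.428), 2.92 to 27.2 CPM in iWAT (median 5.48) and 1.68 to 9.76 CPM in eWAT (median 6.03). It was lower in iBAT by -3.91 ± 0.65 and -3.08 ± 0.63 (edgeR adjusted p 9.46e-05 and 0.000597), with no overlap with iWAT and an overlap of 1 eWAT library, ko replicate 3, with iBAT. In wild type libraries alone the difference of Itgax from eWAT was -2.76 with an edgeR adjusted p of 0.0568.

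In all, 9 of the 10 genes had no overlap between the iBAT and iWAT libraries (34.6% of all genes tested), the exception being Cd163. Between iBAT and eWAT the groups did not overlap for 5 genes, Cd68, Itgam, Tyrobp, Lyve1 and Trem2 (37.3% of all genes). For Adgre1, Csf1r, Mrc1, Cd163 and Itgax, eWAT ko replicate 3 alone lay below the highest iBAT library. Within animals, iBAT was below iWAT in 6 of 6 mice for 9 genes and in 5 of 6 for Cd163, and it was below eWAT in 6 of 6 mice for 9 genes and in 5 of 6 for Mrc1. Without the lymph node rich iWAT libraries, all 10 genes were still lower in iBAT than in iWAT, as were 24.5% of all genes tested, with log2 fold changes of -1.67 for Cd68 to -3.18 for Itgam and a median of -2.17. The differences were smaller than in all libraries for Itgax (-2.82 ± 0.56), Lyve1 (-2.65 ± 0.63), Mrc1 (-2.42 ± 0.37), Tyrobp (-2.28 ± 0.31), Adgre1 (-2.07 ± 0.40) and Csf1r (-2.04 ± 0.35), with edgeR adjusted p-values of 0.00298 or less.

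Per kilobase, Tyrobp had the highest mean in each tissue, at 3.999 ± 1.57 CPM per kb in iBAT, 40.9 ± 34.8 in iWAT and 19.995 ± 6.53 in eWAT (SD, n = 6). It was followed by Cd68 (3.41, 23.1 and 12.4) and Csf1r (2.999, 20.5 and 12.96), which did not differ beyond their spread, since Cd68 was the higher in 4, 3 and 3 of 6 libraries. Trem2 had the lowest mean in every tissue (0.0986, 1.04 and 1.10 CPM per kb), after Itgax (0.155, 2.19 and 1.25). The length counts every annotated exon base, 4946 for Trem2 and 4803 for Itgax. It was not matched to the transcripts expressed, and the order depends on it. In no tissue were neighbours in this order separated in all libraries without overlap.

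Next, the white tissues were compared with each other. None of the 10 genes was called between iWAT and eWAT by edgeR (0 of 10, with 5.7% of all genes higher and 4.5% lower in iWAT), and DESeq2 called 0 as well. At an unadjusted p under 0.05 there were 2, Tyrobp (1.03 ± 0.44) and Mrc1 (0.84 ± 0.37), with edgeR adjusted p-values of 0.152 and 0.165. Of all 18728 genes tested, 4782 were at that level. The log2 fold changes ran from -0.14 for Trem2 to 1.03 for Tyrobp, with a median of 0.83 (all genes, 0.0105), and 4 of 6 mice had the higher level in iWAT for 8 of the genes. The values of 0 of 10 genes were without overlap (4.62% of all genes). The 95% interval of the difference was -0.17 to 1.49 for Csf1r, -0.86 to 0.87 for Cd163 and -1.43 to 1.16 for Trem2, and the lack of a call does not show equal levels.

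This comparison depended on the libraries that stood apart. In iWAT wt replicate 3, the level was 3.74 times the median of the other 4 iWAT libraries for Csf1r, 5.34 times for Tyrobp and 5.15 times for Itgax. In iWAT ko replicate 2 it was 3.89, 4.04 and 3.17 times that median, and 8.96 times for Trem2. Cd163 was at 0.624 times the median in wt replicate 3 and at 1.87 times in ko replicate 2. Without both libraries, the direction turned for Cd68 (-0.19), Csf1r (-0.07), Itgam (-0.38), Tyrobp (-0.05) and Itgax (-0.24), none of which was called (0 of 10 genes, with 2.91% of all genes lower in iWAT), and the median of the 10 genes was -0.0593. Trem2 then differed by -1.59 ± 0.49 (edgeR adjusted p 0.0597), with 1.01 to 2.52 CPM in the 4 remaining iWAT libraries and no overlap with eWAT. When eWAT ko replicate 3 was left out too, a choice made after seeing the data, Trem2 was called lower in iWAT (-1.72 ± 0.44, edgeR adjusted p 0.0218), as were 864 of 18747 genes tested (4.61%), and the other 9 genes were not.

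**Figure D2:**
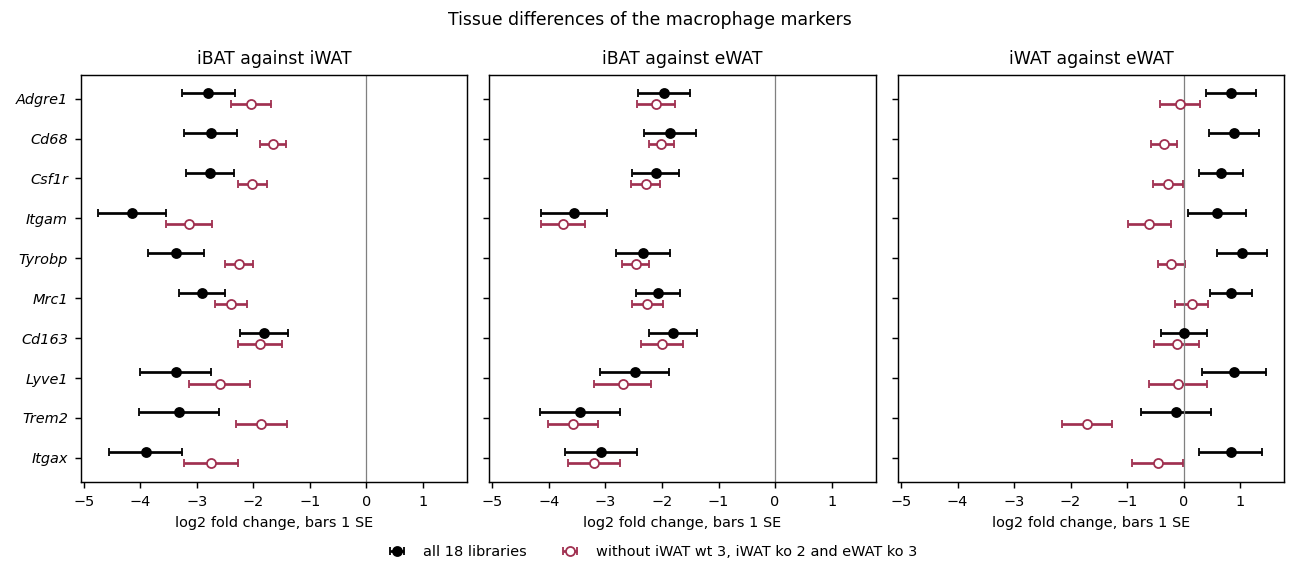
Log2 fold change of each macrophage gene between tissues, with bars of 1 SE, in all 18 libraries (black) and without iWAT wt 3, iWAT ko 2 and eWAT ko 3 (open red). Both sets lie left of 0 in the iBAT panels, whereas the black points of iWAT against eWAT lie mostly right of 0 and the open ones mostly at or left of it, with Trem2 at -1.72.

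The composition of the marker set was then examined by the log2 ratio of each gene to Csf1r (chromosome 18, 61100598 to 61132149, GRCm38) in the same library, in which the scaling of the library cancels except through the prior count of 2, which acts on genes with few counts such as Trem2 in iBAT. The uncertainty of the Csf1r level from its overlap with Hmgxb3, greatest in iBAT, enters every ratio. The ratio of Mrc1 overlapped between all tissues, with means of -0.71 ± 0.27 in iBAT, -0.43 ± 0.29 in iWAT and -0.72 ± 0.14 in eWAT (SD, n = 6). The ratio of Adgre1 overlapped as well, at -2.04 ± 0.50, -1.90 ± 0.34 and -2.05 ± 0.21. Itgam was lower relative to Csf1r in iBAT, at -3.47 ± 0.40, than in iWAT (-2.16 ± 0.32) and eWAT (-2.01 ± 0.33), and its iBAT range of -3.851 to -3.001 overlapped neither white tissue. Against iWAT it was the 1 of the other 9 genes without overlap, compared with 65.7% of all genes. It was again the 1 gene with the 4 iWAT libraries poor in lymph node genes (66.8% of all genes).

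Trem2 stood lower relative to Csf1r in iBAT (median -4.61, range -7.29 to -4.29) than in eWAT (median -3.74, range -4.18 to -3.11), so that 2 of the 9 genes, Itgam and Trem2, did not overlap between iBAT and eWAT (40.2% of all genes). The lowest iBAT value belongs to ko replicate 1, which held 0 counts of Trem2, and is set by the prior count. In iWAT the Trem2 ratio spanned -5.68 to -3.69 and overlapped both. Cd163 had the widest spread of ratios in iWAT, from -3.49 in wt replicate 3 to -0.46, and a narrow range of -1.01 to -0.35 in iBAT. Between iWAT and eWAT no ratio was without overlap (0 of 9, 1.65% of all genes). Without the lymph node rich libraries, with 4 iWAT against 6 eWAT libraries, 2 of 9 were (2.96% of all genes): Trem2, at -5.68 to -4.25 in iWAT, and Mrc1, whose 4 iWAT ratios of -0.44 to -0.04 lay above the eWAT range of -0.86 to -0.48.

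**Figure D3:**
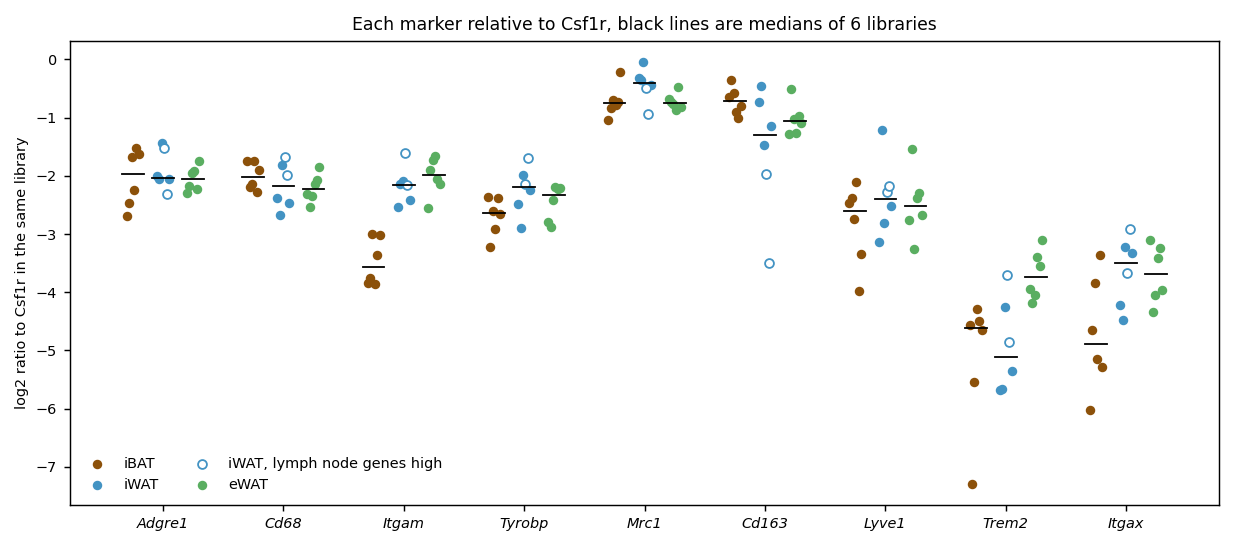
Log2 ratio of each macrophage gene to Csf1r in the same library (y axis), by tissue, with black lines at the medians of 6 libraries and open circles for the iWAT libraries rich in lymph node genes. The points of Mrc1 and Adgre1 overlap between all tissues, Itgam is lowest in iBAT, and the Cd163 ratio falls to -3.49 in 1 lymph node rich library.

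The genes with the most similar pattern to each macrophage gene were taken as those with the smallest SD of the log2 ratio over the 18 libraries, which share tissue and mice. For Csf1r these were C1qc (SD 0.196), C1qb (0.205) and C1qa (0.238), the chains of complement C1q, and the same genes were nearest to Mrc1 (0.243 to 0.249). Nearest to Tyrobp were Pirb (0.203), Pld4 and Nfam1, and nearest to Cd68 were Cybb (0.251), Igsf6 and C1qb. Adgre1 was closest to Clec4a1 (0.273), C1qb and Slc11a1, and Itgam to Ccl6 (0.461), Cd200r1 and Ptafr. The median SD over all genes was 1.39 for Csf1r.

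The smallest SD was 0.410 or more for the remaining genes. For Lyve1 the nearest was Folr2 (SD 0.499), another resident macrophage gene, followed by Fn1 and Ifitm6. Itgax was nearest to Hk3 (0.596), AI467606 and Ncf1, and Trem2 to Lilr4b (0.656), Aldh3b1 and Dpep2. Cd163 was nearest to Mfap5 (0.410), Abca9 and C1qtnf1. Within the set, Csf1r and Mrc1 were closest (SD 0.269), and Cd163 and Trem2 were farthest apart (1.41).

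The ligands and partners of the set were also lower in iBAT. Csf1, the main ligand of the Csf1r receptor, reached 9.79 to 17.7 CPM in iBAT, compared with 37.8 to 73.4 CPM for iWAT and 22.5 to 47.97 CPM for eWAT, with log2 fold changes of -2.15 ± 0.22 and -1.78 ± 0.22 for iBAT against iWAT and eWAT. Il34, the other ligand, differed less from iWAT (-0.85 ± 0.21) than from eWAT (-1.45 ± 0.21). Itgb2, the shared beta chain of the Itgam and Itgax integrins, was lower by -3.35 ± 0.62 and -2.14 ± 0.60, and Syk by -4.23 ± 0.61 and -2.68 ± 0.58. The 4 genes were called in both comparisons, with edgeR adjusted p-values of 0.00643 or less, where 30.3% and 30.2% of all genes were called lower. In the wild type libraries alone, Itgb2 (-1.96, edgeR adjusted p 0.117) and Syk (-2.57, 0.0567) lost their calls against eWAT, leaving 2 of 4 (18.3% of all genes lower). Between the white tissues, 0 of 4 was called. In that comparison 3 of the 4 were at an unadjusted p under 0.05 (4782 of the 18728 genes tested), Il34 at -0.60 ± 0.21, Itgb2 at 1.21 ± 0.57 and Syk at 1.55 ± 0.53. DESeq2 called 2, Il34 lower and Syk higher in iWAT. When the lymph node rich libraries were left out, 0 of 4 was called, with Csf1 at 0.21, Il34 at -0.45 ± 0.22, Itgb2 at -0.13 ± 0.45 and Syk at 0.08 ± 0.32, whereas all 4 were still lower in iBAT than in iWAT (-1.99 for Csf1, -1.002 for Il34, -2.002 for Itgb2 and -2.75 for Syk).

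Other genes of the same cell type were read from lists chosen with earlier results of these data known. The shares of all genes to set beside their counts are 30.3% lower and 24% higher in iBAT against iWAT, and 30.2% lower and 24.4% higher against eWAT. Of 15 other general macrophage genes, 13 were lower in iBAT than in iWAT and 13 lower than in eWAT, with those of smallest p being Fcer1g (-2.98 ± 0.42), C1qa (-2.81 ± 0.41) and C1qb (-2.76 ± 0.41) against iWAT and Mertk (-1.56 ± 0.16), Fcer1g and C1qa against eWAT. Cx3cr1, the fractalkine receptor, was not called in either (-0.99 ± 0.65 and -0.22 ± 0.65). The medians were -2.88 and -1.90. In the wild type libraries alone, 13 of the 15 were lower than in iWAT and 7 lower than in eWAT (medians -2.72 and -1.998), compared with 19.8% and 18.3% of all genes. Of 13 other resident genes, 13 were lower than in iWAT and 12 lower than in eWAT (medians -3.65 and -2.69), with Clec10a (-4.46 ± 0.39), a lectin, Cbr2 (-2.66 ± 0.29) and Cd209g (-4.17 ± 0.52) of smallest p against iWAT and Gas6 (-2.82 ± 0.28), Clec10a (-3.36 ± 0.38) and Cbr2 (-2.43 ± 0.28) against eWAT. Timd4 missed the threshold against eWAT (-2.53 ± 1.13, edgeR adjusted p 0.0678).

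The other lipid-associated genes did not move as one. Relative to iWAT, 7 of 9 were lower in iBAT (4 of 9 in the wild type libraries alone, where 19.8% of all genes were), with Lgals3 (-4.06 ± 0.32), Cd9 (-1.91 ± 0.17) and Gpnmb (-4.78 ± 0.47) of smallest p, while Lipa, the lysosomal acid lipase (1.09 ± 0.17), and Ctsd, a lysosomal protease (0.90 ± 0.20), were higher. Relative to eWAT, 4 were lower and the same 2 higher (Lipa 1.47 ± 0.18, Ctsd 1.47 ± 0.20). Lipa and Ctsd are lysosomal genes of many cell types. Of 7 monocyte and inflammatory genes, 5 were lower than in iWAT and 3 lower than in eWAT, the latter a share near that of all genes. These were Ccl2 (-3.46 ± 0.52 and -3.08 ± 0.52), Ccr2 (-2.88 ± 0.47 and -2.44 ± 0.46) and Cd86 (-3.06 ± 0.59 and -1.63 ± 0.57) in both. In the lymph node rich libraries, 14 of the 15 general genes were above the other 4 iWAT libraries (21.6% of all genes). Without these libraries, iBAT was lower than iWAT for 13 of 15 general genes (median -1.87), 13 of 13 resident genes (-2.73) and 4 of the 6 monocyte and inflammatory genes that could be tested (-1.74), and 7 of 9 lipid-associated genes were lower and 2 higher (-1.76).

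Between iWAT and eWAT, Fcgr1 (1.66 ± 0.48), Timd4 (3.58 ± 1.01), Clec10a (1.09 ± 0.34), Spp1 (3.78 ± 0.75), Cd9 (0.75 ± 0.16) and Fabp5 (0.78 ± 0.20) were higher in iWAT, and Mertk (-0.62 ± 0.15) and Gas6 (-0.87 ± 0.27) lower. The edgeR adjusted p-values were 0.0481 or less. Without the lymph node rich libraries Timd4 was at 0.31 ± 0.64, Fcgr1 at 0.58 ± 0.33 and Clec10a at 0.61 ± 0.32, none of them called. The calls of Spp1 (3.26 ± 0.75), Cd9, Fabp5, Mertk and Gas6 held. Of 7 monocyte and inflammatory genes, edgeR called 0 in this comparison, with a median of 1.43. At an unadjusted p under 0.05 there were 4 (4782 of the 18728 genes tested), and DESeq2 called 2, Il1b and Ly6c2. With the lymph node rich libraries left out, edgeR called 0 of 6, and the median was -0.12.

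Markers of other cells that share members of the set were summed beside them. The 10 macrophage genes together held 41.6 to 93.9 CPM in iBAT, 180 to 760 CPM in iWAT and 92.9 to 349 CPM in eWAT. The 5 dendritic cell genes (led by Zbtb46, which endothelial cells also express) held 31.0 to 43.2, 41.2 to 76.5 and 19.5 to 38.3 CPM, so that iBAT overlapped both white tissues while every iWAT library lay above every eWAT library. Of the 5, 4 were lower in iBAT than in iWAT, with a median of -1.91, beside 30.3% of all genes. Relative to eWAT, 1 was lower and 1 higher, beside 30.2% and 24.4% of all genes. Zbtb46 alone averaged 32.5 CPM in iBAT. The 5 neutrophil genes led by S100a9 held 0.972 to 2.10 CPM in iBAT and 0.347 to 2.62 CPM in eWAT, and 1.89 to 134 CPM in iWAT, with the highest value in wt replicate 3, and 1 of the 5 was at 0 in all iBAT libraries. For 4 natural killer cell genes led by Gzma the ranges were 0.0783 to 1.62, 2.90 to 23.6 and 1.88 to 6.16 CPM. Blood endothelial genes, 4 led by Cdh5, held 822 to 988 CPM in iBAT, 508 to 779 CPM in iWAT and 449 to 955 CPM in eWAT. Of these, 2 were called higher and 0 lower in iBAT against iWAT, beside 24% and 30.3% of all genes. Against eWAT, 1 was called higher and 1 lower, beside 24.4% and 30.2% of all genes.

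Finally, the genotypes were compared, to ask whether loss of Gm15551 altered the macrophage genes. None of the 10 was called by edgeR across tissues (0 of 10, 0.00534% of all genes), in iBAT (0 of 10, 0%), in iWAT (0 of 10, 0%) or in eWAT (0 of 10, 0.00534%), and DESeq2 called 0 in each. At an unadjusted p under 0.05 there were 0 across tissues, 0 in iBAT, 1 in iWAT and 0 in eWAT. Of all 18728 genes tested, 411, 238, 415 and 814 were at that level. Across tissues the log2 fold changes of ko against wt ran from -0.71 ± 0.48 for Itgax to 0.58 ± 0.47 for Lyve1. That fit counted the tissues of a mouse as independent, so its SE may be too small. Leaving out each mouse in turn gave -1.19 to -0.23 for Itgax and 0.15 to 0.997 for Lyve1. The joint edgeR test of the interaction of genotype with tissue called 0 of 10 (0% of all genes), with 0 at an unadjusted p under 0.05, and DESeq2 called 0.

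The 1 gene at an unadjusted p under 0.05 was Cd163 in iWAT, with 33.9, 18.01 and 18.3 CPM in wild type replicates 1 to 3 and 92.7, 54.8 and 24.7 CPM in knockout replicates 1 to 3. The groups overlapped, since the lowest knockout library lay under the highest wild type library. The log2 fold change was 1.29 ± 0.55 (95% interval 0.13 to 2.46) with an edgeR adjusted p of 1. Its highest library, ko replicate 1, is the one with skeletal muscle genes, and without it the difference was 0.76. Leaving out each iWAT library in turn gave 0.76 to 1.67, with no call. Itgax in iBAT had the largest difference in the other direction, -1.38 ± 0.98, with 0.124, 1.88 and 1.23 CPM in wild type and 0.470, 0.376 and 0.386 CPM in knockout libraries, which lay inside the wild type range. Leaving out each iBAT library in turn gave -1.91 to -0.71. Over the 10 genes, the iBAT differences spanned -1.38 to 0.13, those of iWAT -0.35 to 1.29 and those of eWAT -0.60 to 0.65.

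In 0 of 10 genes were knockout and wild type libraries without overlap in iBAT (4.94% of all genes), in iWAT (4.92%) or in eWAT (5.25%). For Csf1r the 95% interval ran from -1.46 to 1.09 within iBAT, from -0.89 to 1.58 within iWAT, from -1.41 to 1.06 within eWAT and from -0.67 to 0.67 across tissues. With 3 mice per group the intervals are wide. The interval across tissues counted the tissues of a mouse as independent and may be too narrow. The absence of a call does not show equal levels.

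**Figure D4:**
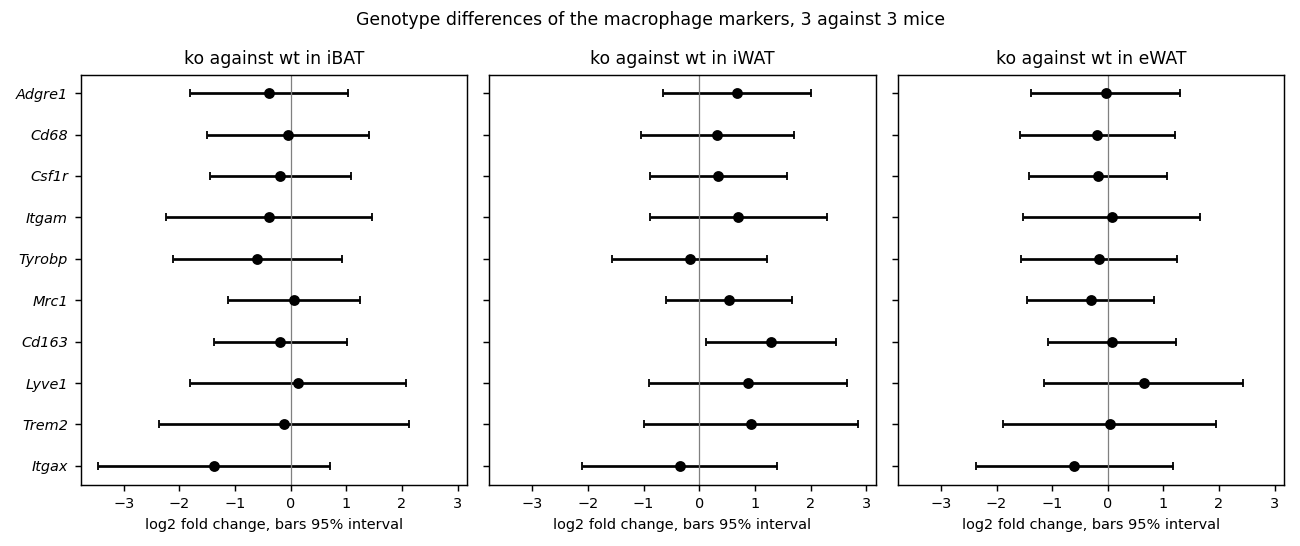
Log2 fold change of knockout against wild type for each macrophage gene in each tissue, with bars for the 95% interval (3 against 3 mice). All intervals but that of Cd163 in iWAT (0.13 to 2.46) include 0.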

How the data were processed

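Polyadenylated RNA of 18 libraries was sequenced in paired ends. Per the study's methods, the authors trimmed reads (cutadapt) and quantified transcripts (salmon) on GENCODE M22 (GRCm38), alone or joined with RNAcentral; which was used, the versions, the strand setting and the summing to genes are not given in the sources used here. The deposited values are estimated counts, rounded and not normalised, with 1 row per gene. Salmon divides reads shared by genes with a model, so overlapping genes are uncertain. Positions come from GENCODE M21.

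Counts were filtered with filterByExpr, scaled by TMM and fitted with edgeR 4.0.16 (quasi-likelihood F-test, R 4.3.3) over all 18728 genes with tissue and genotype terms, or with 1 mean per group for genotype within tissues and the interaction. Adjusted p is the Benjamini-Hochberg value over all genes (threshold 0.05). The SE was taken as log2 fold change over root F. Intervals are 95%. Ratios used log2 CPM with a prior count of 2. Replicates were mice, and the identifier in the labels gave the tissues of each mouse. The main fits had no term for the mouse, so the genotype test across tissues counted the libraries of a mouse as independent. The mouse entered only as a block in an alternative for the tissue comparisons. Deviations from the group mean correlated at -0.13 to 0.34 between tissues of a mouse. Litters are not assigned to animals in the labels. Promoters come from RefSeq (GRCm38.p6). The tissue fits were run on simulated counts with known differences in iBAT and libraries drawn independently. That run does not bear on mouse effects, libraries that stand apart or genotype. DESeq2 1.42.0 and other settings were alternatives.

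The 10 genes and all lists were chosen with earlier results of these data known. Named were the 10 genes, Gm15551, Csf1, Il34, Itgb2 and Syk, up to 3 genes of smallest p per direction, list and tissue contrast, the leading gene of each cell type list, and the 3 nearest genes of each macrophage gene.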

Additional observations from a re-analysis of the deposited data

Results flagged for a closer look

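In 5 of 30 sets of 6 libraries (10 genes in 3 tissues), 1 library lay far from the other 5 on the log2 scale, measured as its gap to the nearest library over the whole range and judged by Dixon's 95% limit for 6 values. Chance gives about 1 in 20 sets, or 1.5 of 30. The sets are not independent, since the 10 genes share libraries and many vary together, so the 5 flags are not separate findings. For 4 genes, the low library was eWAT ko replicate 3, with gaps of 0.746 for Cd68 (7.58 CPM, next 15.2), 0.662 for Csf1r (27.5 CPM, next 63.9), 0.630 for Tyrobp (5.89 CPM, next 12.1) and 0.806 for Mrc1 (15.6 CPM, next 45.9). This is the library with 5094 CPM of epididymis genes and with 4274 CPM of adipocyte genes, the lowest in eWAT, and the part of either in these levels was not tested. For Trem2 in iBAT the low library was ko replicate 1, with a gap of 0.838 (0 counts, 0 CPM, next 0.495 CPM). That gap depends on the prior count added before the logarithm. With the library set to the 3 counts that 0 counts allow, a choice made after seeing the data, the gap was 0.641, just above the limit.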

How the results depend on the processing

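The calls of all 10 genes in iBAT against iWAT and in iBAT against eWAT held under DESeq2 size factors, without mitochondrial genes, without a filter, with DESeq2 and without the lymph node rich libraries. They also held without eWAT ko replicate 3 and without iWAT ko replicate 1. A minimum of 10 counts in every library removed Trem2 and Itgax and left 8 of 8. With wild type libraries only, Cd163 lost its call against iWAT (-1.04, adjusted p 0.0691) and Lyve1 (-2.24, 0.0673) and Itgax (-2.76, 0.0568) lost theirs against eWAT. With the mouse as a replicate block, the pairing of tissues gave 10, 10 and 0 called genes for the 3 tissue comparisons, and the block by replicate number gave 0 for each genotype comparison, so the block changed no call; same-numbered wt and ko mice share a number only (correlations of -0.49 to 0.53). Leaving out each mouse in turn gave 10 called genes against iWAT, 10 against eWAT and 0 between iWAT and eWAT. It also gave 0 for genotype across tissues and for the interaction. Within each tissue, leaving out each library of that tissue in turn gave 0 for genotype.

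For iWAT against eWAT, the directions of 5 genes turned without the lymph node rich libraries (Cd68 -0.19, Csf1r -0.0675, Itgam -0.38, Tyrobp -0.0512, Itgax -0.24). Without these and eWAT ko replicate 3, added after seeing the data, 1 gene was called (Trem2, -1.72) and 8 turned (Adgre1 -0.0647, Cd68 -0.35, Csf1r -0.27, Itgam -0.60, Tyrobp -0.22, Cd163 -0.12, Lyve1 -0.10, Itgax -0.46). Cd163 also turned in wild type libraries (-0.67), without eWAT ko replicate 3 (-0.23) and without iWAT ko replicate 1 (-0.35). Leaving out 1 mouse gave -0.14 to 0.20 for Cd163, with -0.0968, -0.139 and -0.126 without ko mice 1, 2 and 3, and -0.84 to 0.11 for Trem2, with 0.106 and 0.0254 without wt mice 1 and 2. Without the lymph node rich libraries, 5 ratios to Csf1r did not overlap between tissues, compared with 3 in all libraries, namely 1 for iBAT against iWAT (66.8% of all genes), 2 for iBAT against eWAT (40.2%) and 2 for iWAT against eWAT (2.96%), with only 4 iWAT libraries left. In the genotype comparisons, Itgax in iWAT turned to 0.42 without the lymph node rich libraries and spanned -1.10 to 1.17 when 1 library was left out; Cd163 in iWAT spanned 0.76 to 1.67, the lowest without iWAT ko replicate 1, and Lyve1 spanned -0.29 to 0.74 in iBAT and -0.17 to 1.11 in eWAT. None of these was called. Over all genes, calls between iWAT and eWAT numbered 1911, and between 247 (wild type libraries only) and 2653 (DESeq2) under the alternatives. The causes were not tested. Depth limits Trem2 and Itgax in iBAT, with at most 10 and 29 counts.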
